A study of Sus scrofa with 24 samples.

Results

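FKBP10 and FKBP14, a pair of prolyl isomerase chaperones of the endoplasmic reticulum (ER) that assist collagen folding, were followed in the longissimus dorsi muscle of pigs fed 4 dietary fats. The pair was chosen on earlier comparisons of the fats in these same data, and its members were found by gene symbol, as 2 of the 6765 genes that the platform annotation names. Differences of the pair between the fats are therefore given as a description, without a test. Of the 23999 probe sets other than controls, 4 belonged to the pair, 1 for FKBP10 (Ssc.1381.1.S1_at) and 3 for FKBP14 (Ssc.6848.1.A1_at, Ssc.20986.2.S1_at and Ssc.20986.1.S1_at). The FKBP14 probe sets are called here, in that order of their mean log2 signal (8.14, 7.65 and 7.48), the brightest, the middle and the dimmest. Where 1 value per gene is used, it is that of its brightest probe set.

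Collagen chains are made in the ER, where prolines and lysines are hydroxylated and chains are zipped into a triple helix. Many proline bonds must be turned into the trans form before the helix can close, and FK506-binding proteins with an ER signal catalyse that step. FKBP10 (FKBP65) is known as a chaperone of type I procollagen that is also needed for normal lysine hydroxylation of the collagen telopeptides, and its loss causes brittle bone disease. FKBP14 (FKBP22) binds several collagen types, among them type III, and its loss causes a kyphoscoliotic form of Ehlers-Danlos syndrome with weak muscle. In skeletal muscle, collagen is made mainly by the fibroblasts of the connective tissue around the fibres.

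The pigs were Landrace × Large White × Duroc crosses that entered the trial at about 71 kg and 130 days of age. The added fat made up 3% of the feed and was tallow from beef, or the oil of coconut, olive or soybean, and no group without added fat was among these samples. Each fat was represented by 3 gilts (young females) and 3 barrows (castrated males), so that 24 pigs on 24 single-colour Affymetrix porcine arrays formed 8 groups of 3. Pigs were housed 3 to a pen with 6 pens for each fat. The pen of each sampled pig was not given, so pigs were treated as independent, and the p-values measure the spread between these pigs only. Each pig is named by its number in the labels.

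The deposited signals had a trimmed mean near 500 on every array (500.1 to 500.2). A probe set was tested if its mean log2(signal + 1) reached the 40th percentile, which corresponds to a signal of 86.3, and 14399 probe sets did. All 4 probe sets of the pair passed that filter, and each of them was above 86.3 in all 24 pigs. Muscle fibre markers were bright, with a mean log2 signal of 15.52 for CKM, the muscle creatine kinase, and of 15.25 for MYH7, the slow myosin heavy chain. The arrays of pigs 11, 16 and 12 had the lowest mean correlation with the other arrays (0.912, 0.915 and 0.917), and pigs 16 and 12 also held some of the highest FKBP10 and FKBP14 signals. Because whole muscle was extracted, fewer cells that express a gene and less RNA of it per cell cannot be told apart.

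FKBP10 signal was highest with tallow and lowest with coconut oil. With tallow the gilts had signals of 302, 365 and 352 and the barrows of 1013, 669 and 444. With coconut oil the gilts had 301, 165 and 174 and the barrows 196, 155 and 184. The highest coconut pig, pig 1, lay just under the lowest tallow pig, and the other 5 coconut pigs were at or below 196.

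With olive oil, FKBP10 signals were 279, 191 and 500 in gilts and 143, 182 and 215 in barrows. With soybean oil they were 358, 276 and 314 in gilts and 219, 249 and 384 in barrows. The olive pigs ran from below the lowest coconut pig to the tallow barrows, which pig 12 reached. All 3 tallow barrows exceeded every pig on the other fats except pig 12.

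On the log2 scale, mean FKBP10 was 8.90 ± 0.66 (SD, n = 6) with tallow, 8.21 ± 0.31 with soybean oil, 7.85 ± 0.63 with olive oil and 7.58 ± 0.34 with coconut oil. Coconut minus tallow was -1.31 ± 0.23 (SE), a 2.49-fold lower level. Olive minus tallow was -1.05 ± 0.23 and soybean minus tallow was -0.69 ± 0.23. Neighbouring fats in this order overlapped in their pigs, and olive minus coconut, 0.27 ± 0.23, was close to its SE.

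FKBP14 followed the same order of the fats at its brightest probe set. With tallow its signals were 255, 346 and 287 in gilts and 663, 585 and 285 in barrows. With coconut oil they were 204, 234 and 183 in gilts and 164, 174 and 215 in barrows. No coconut pig reached the lowest tallow pig.

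With olive oil, FKBP14 signals at that probe set were 240, 213 and 645 in gilts and 222, 256 and 217 in barrows. With soybean oil they were 245, 276 and 391 in gilts and 303, 277 and 445 in barrows. Every soybean pig was above every coconut pig, while the olive pigs overlapped both.

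The log2 means of FKBP14 there were 8.56 ± 0.58 with tallow, 8.31 ± 0.33 with soybean oil, 8.09 ± 0.62 with olive oil and 7.61 ± 0.19 with coconut oil (SD, n = 6 each). Coconut minus tallow was -0.95 ± 0.24 (SE), a 1.93-fold lower level. Olive minus coconut was 0.49 ± 0.24 and soybean minus coconut 0.70 ± 0.24. Soybean minus tallow, -0.25 ± 0.24, and soybean minus olive, 0.21 ± 0.24, were about as large as their SE.

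The other FKBP14 probe sets differed in how far they set coconut oil apart. At the middle one the coconut pigs had signals of 93.5 to 138 with a median of 121, whereas the lowest pig had 170 with tallow, 170 with olive oil and 179.6 with soybean oil. No coconut pig overlapped any pig on another fat there, and coconut minus tallow was -1.19 ± 0.21, olive minus coconut 0.92 ± 0.21 and soybean minus coconut 1.01 ± 0.21. At the dimmest one the signals ran from 114 to 210 with coconut oil, 160 to 379 with tallow, 128 to 309 with olive oil and 99.4 to 257 with soybean oil. All fats overlapped at that dimmest probe set, where coconut minus tallow was -0.54 ± 0.25 and soybean minus coconut was 0.06 ± 0.25. The share of all probe sets at which coconut oil is separated from another fat is not given here. The separations seen for FKBP10 and FKBP14 are thus description only.

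**Figure D1:**
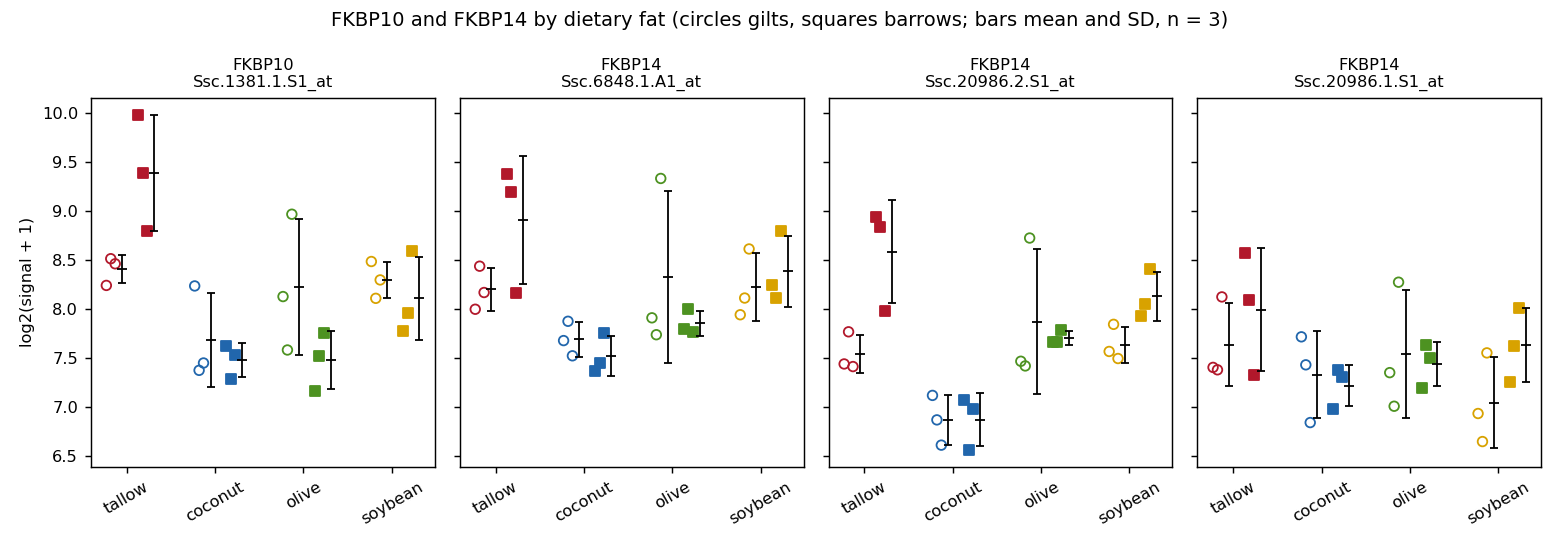
log2(signal + 1) of the FKBP10 probe set and the 3 FKBP14 probe sets in each pig by dietary fat, with gilts as open circles, barrows as filled squares, and bars for the mean and SD of each group of 3. Coconut pigs lie below all tallow pigs for FKBP10 and at the brightest and middle FKBP14 probe sets, below all pigs on the other fats at the middle one only, and overlap the other fats at the dimmest one.

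Across the array, limma with Benjamini-Hochberg adjustment called 161 of 14399 probe sets (1.12%) between coconut oil and tallow, 37 higher and 124 lower with coconut oil. FKBP10 and the middle FKBP14 probe set were among them, and nothing is read from those calls, since the pair was chosen from this comparison. Without single pigs the number of calls ranged from 0 (without pig 6, 8, 16 or 21) to 664 (without pig 12). It stayed near 161 only without pig 4, 5, 9, 11, 17 or 19, with 113 to 160 calls. Each of the other 5 pairs of fats gave 0 calls by limma (0%), with 458 to 1875 probe sets at an unadjusted p below 0.05. The coconut minus tallow difference itself ranged, as single pigs were left out, from -1.46 to -1.17 for FKBP10 and from -1.14 to -0.83 for FKBP14. With median-centred arrays the middle of all coconut minus tallow differences lay at 0.09, not -0.04, and the calls split into 101 higher and 63 lower. FKBP10 was then -1.19 and FKBP14 was -0.82.

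The pair was chosen on comparisons of the fats, and the difference between the sexes was tested. Earlier comparisons of these data were also made within each sex. The tests of sex and of the interaction of fat and sex may therefore not be independent of the choice. Averaged over the fats, barrow minus gilt was -0.04 ± 0.16 (SE) for FKBP10 (barrows 8.12, gilts 8.16, limma adjusted p = 0.923). For FKBP14 it was 0.06 ± 0.17 at the brightest probe set (limma adjusted p = 0.890), 0.34 ± 0.15 at the middle one (0.176) and 0.18 ± 0.17 at the dimmest (0.596). Exact permutation of the sexes within each fat (160000 relabelings, two-sided) gave p = 0.856 for FKBP10 and 0.792, 0.0700 and 0.329 for the FKBP14 probe sets. None of the 4 probe sets passed the threshold of 0.05, while 687 of 14399 (4.77%) did by limma. Of those 687, 326 were higher and 361 lower in barrows, and with median-centred arrays 427 were higher and 261 lower. FKBP10 has no settled direction, since its difference became 0.0055 with median-centred arrays. At the middle FKBP14 probe set, the adjusted p fell to 0.0322 without pig 12.

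Within single fats the difference between the sexes ran both ways. With tallow, barrow minus gilt was 0.98 for FKBP10, 0.71 at the brightest FKBP14 probe set and 1.05 at the middle one. With olive oil it was -0.75, -0.47 and -0.17 in the same order. With coconut oil it was -0.21, -0.17 and 0.004, and with soybean oil -0.19, 0.16 and 0.49. With 3 pigs of each sex, the SE of such a difference was 0.33, 0.34 and 0.29. At the dimmest FKBP14 probe set, barrow minus gilt was 0.36 with tallow and -0.11 with coconut oil. There it was -0.10 with olive oil and 0.59 with soybean oil (SE 0.35). The tallow barrows and tallow gilts did not overlap for FKBP10 (444 to 1013 against 302 to 365), while pig 24 among the barrows lay within the gilts' range at the brightest FKBP14 probe set. With each other fat the FKBP10 signals of gilts and barrows overlapped. The share of all probe sets at which groups of 3 are so separated is not given here, so the separation with tallow is description only.

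The interaction of fat and sex did not pass correction for either gene. By limma's moderated F test the adjusted p was 0.778 for FKBP10 and from 0.778 to 0.851 for the FKBP14 probe sets (limma's unadjusted p was 0.00903 for FKBP10 and 0.121, 0.0342 and 0.415 for FKBP14). Across the array, limma called 0 of 14399 probe sets (0%), with 895 at an unadjusted p below 0.05. In gilts alone, coconut minus tallow was -0.72 for FKBP10 and -0.51 for FKBP14, and in barrows alone -1.91 and -1.39. Olive minus tallow was -0.18 in gilts and -1.91 in barrows for FKBP10, and 0.13 and -1.05 for FKBP14.

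Whether FKBP10 and FKBP14 varied together from pig to pig was tested on deviations from the 8 group means, which carry none of the differences between fats or sexes. Pig 12 was high in both (0.74 above its group for FKBP10 and 1.01 for FKBP14), as were pig 16 (0.59 and 0.47) and pig 19 (0.48 and 0.41). Pig 24 (-0.59 and -0.75) and pig 7 (-0.64 and -0.59) were low in both. Pig 1 was high in FKBP10 (0.55) but not in FKBP14 (-0.01). Over the 24 pigs the deviations correlated with Pearson's r = 0.72 (permutation within groups, two-sided p = 0.0138) and Spearman's rho = 0.57 (permutation p = 0.0302).

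The other FKBP14 probe sets gave higher correlations with FKBP10. For the middle one, r was 0.82 (permutation p = 0.000960) and rho 0.73 (permutation p = 0.00252). For the dimmest one, r was 0.78 (permutation p = 0.00177) and rho 0.68 (permutation p = 0.00563). Over these 3 relations the Benjamini-Hochberg adjusted permutation p-values of r were 0.0138, 0.00265 and 0.00265. The FKBP14 probe sets correlated with each other at r = 0.84, 0.79 and 0.61, a range that holds the r of each with FKBP10.

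The relation at the brightest FKBP14 probe set depended on single pigs. Without pigs 7 and 12, whose FKBP10 deviations were farthest from the median, r was 0.58 (permutation p = 0.0838) and rho 0.42 (permutation p = 0.139), so the relation no longer passed the threshold. Without pig 12 alone r was also 0.58 (permutation p = 0.0628), and without the 3 arrays of lowest mean correlation it was 0.50 (permutation p = 0.119). Leaving out any other single pig kept r past the threshold, but rho missed it without pig 4, 6, 7, 12, 16, 19, 21 or 24 (permutation p from 0.0534 to 0.114). With all pigs, rho also missed it after quantile normalization (0.49, permutation p = 0.0750) and with median-centred arrays (0.45, permutation p = 0.0994). Under these scalings r still passed (0.68 and 0.67, permutation p = 0.0266 and 0.0341). Over the log2 signals themselves, which include the differences between groups, r was 0.84 and rho 0.78.

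**Figure D2:**
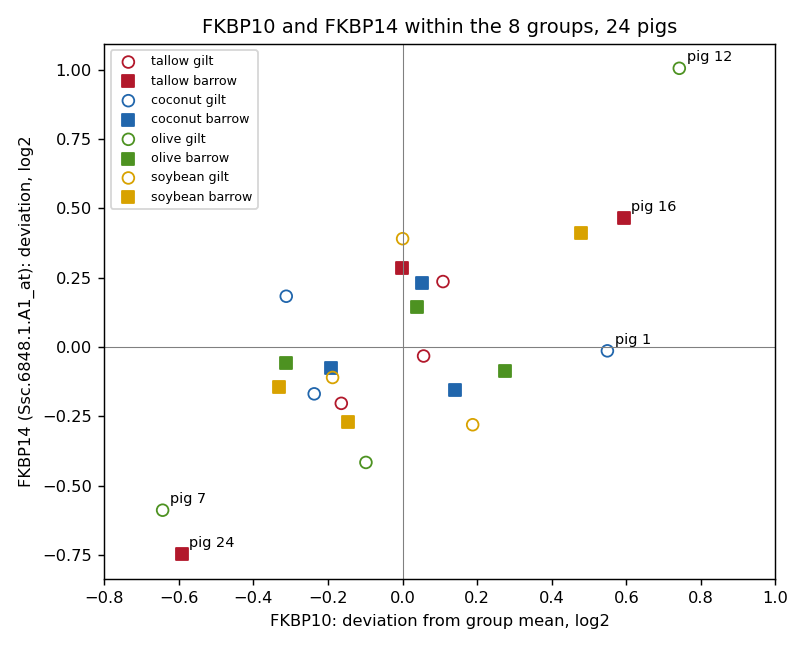
Deviation of each pig from its group mean, in log2 units, for FKBP10 (horizontal) and the brightest FKBP14 probe set (vertical), coloured by fat, with gilts as open circles and barrows as filled squares. Pigs 12 and 16 lie at the upper right and pigs 7 and 24 at the lower left, and the 24 points give r = 0.72.

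The same deviations were set against every other probe set with limma, as the slope of its log2 signal on that of FKBP10 or FKBP14 with the 8 group means in the model. For FKBP10, 61 of 14398 probe sets (0.424%) had a positive slope at an adjusted p below 0.05 and 5 (0.0347%) a negative one. For FKBP14, 325 (2.26%) had a positive slope and 84 (0.583%) a negative one. With median-centred arrays the calls were 14 positive and 8 negative for FKBP10, and 144 positive and 107 negative for FKBP14, and the median slope of all probe sets on FKBP10 moved from 0.03 to -0.08. The median r over all probe sets was 0.04 with FKBP10 and 0.02 with FKBP14. The middle and dimmest FKBP14 probe sets were among the calls of FKBP10 (slopes 0.72 ± 0.14 and 0.84 ± 0.17 SE, limma adjusted p = 0.0276 and 0.0325). The brightest one was not (0.77 ± 0.18, limma adjusted p = 0.0744).

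Collagen chain genes lay mostly on the positive side. The list held 44 genes, of which 15 had a named probe set and 11 were tested. With FKBP10, 10 of these 11 had a positive r (against 53.7% of all probe sets) and the median was 0.46. COL1A2 and COL8A1 passed the test, against 0.424% of all probe sets with a positive slope. With FKBP14, 10 of 11 were positive (against 51.7% of all probe sets) and the median was 0.59. COL1A2 and COL8A1 passed again, against 2.26% of all probe sets with a positive slope. No collagen chain passed with a negative slope.

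COL1A2, which encodes the alpha-2 chain of type I collagen, had a slope of 1.20 ± 0.25 (SE) on FKBP10 (r = 0.76, limma adjusted p = 0.0294). Its slope on FKBP14 was 1.04 ± 0.25 (r = 0.70, limma adjusted p = 0.0348). COL8A1, a short-chain collagen of vessel walls, had slopes of 0.92 on FKBP10 (r = 0.79, limma adjusted p = 0.0278) and 0.82 on FKBP14 (r = 0.74, limma adjusted p = 0.0252). COL8A1 was dim, with a mean log2 signal of 6.92.

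Type VI collagen, which surrounds muscle fibres, had r of 0.68 (COL6A2) and 0.70 (COL6A3) with FKBP10 and 0.59 and 0.62 with FKBP14, short of the threshold (limma adjusted p from 0.108 to 0.134). COL5A1, a chain of the type V collagen that sets the diameter of fibrils, had r of 0.61 with FKBP10 and 0.67 with FKBP14 at its brightest probe set and did not pass. Its 3 tested probe sets disagreed, since another had 0.86 with both genes (limma adjusted p = 0.0202 and 0.00966) and the dimmest had -0.15 and 0.13. COL5A2, another type V chain, had r of 0.45 and 0.26. The basement membrane chains COL4A2 and COL15A1 had r of 0.46 and 0.36 with FKBP10 and of 0.64 and 0.52 with FKBP14. Without pig 12 these were 0.29 and 0.15, and 0.50 and 0.32. Without the 3 arrays of lowest mean correlation they were 0.23 and 0.23 with FKBP10, and 0.45 and 0.36 with FKBP14. There, COL6A2 and COL6A3 had r of 0.60 and 0.63 with FKBP10, and of 0.36 and 0.38 with FKBP14.

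COL3A1, the chain of type III collagen, had r of 0.24 with FKBP10 and 0.05 with FKBP14. These were 0.37 and 0.19 without pig 12, and 0.49 and 0.25 without the 3 arrays of lowest mean correlation. Its probe set was dimmer than that of COL1A2, with median signals per fat of 201 to 266 against 821 to 1651. COL17A1, an epithelial transmembrane collagen, was the one with a negative r (-0.51 and -0.32) and did not pass. No probe set used here was named for COL1A1, COL4A1, COL6A1, COL12A1, COL14A1 or COL18A1.

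Among 21 tested genes of collagen hydroxylation, folding, export and processing (of 40 listed, 22 with a named probe set), 2 passed with FKBP10 and 6 with FKBP14, all with positive slopes. Of all probe sets, 0.424% and 2.26% passed with a positive slope. KDELR3, a receptor that returns KDEL-tailed proteins to the ER, had slopes of 0.99 on FKBP10 (r = 0.84, limma adjusted p = 0.0142) and 0.82 on FKBP14 (r = 0.74, limma adjusted p = 0.0276). LOX, the lysyl oxidase that crosslinks collagen outside the cell, had slopes of 1.67 (r = 0.78, limma adjusted p = 0.0240) and 1.49 (r = 0.73, limma adjusted p = 0.0208). The median r of the 21 genes was 0.44 with FKBP10 and 0.65 with FKBP14.

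CRTAP, SERPINH1, SEC24D and P4HA2 passed with FKBP14 and not with FKBP10, and the difference between the slopes was not tested. CRTAP, a subunit of the prolyl 3-hydroxylase complex, had r of 0.78 with FKBP14 and 0.66 with FKBP10. SERPINH1 (HSP47), the collagen-specific chaperone, had 0.74 and 0.62, and SEC24D, a coat protein of the vesicles that carry procollagen, had 0.73 and 0.66. P4HA2, a catalytic subunit of prolyl 4-hydroxylase, had 0.74 and 0.43 at its brightest probe set and -0.03 and -0.07 at its other one. SPARC, a collagen-binding matrix protein (0.37 with FKBP14, 0.44 with FKBP10), and PLOD1, a lysyl hydroxylase (0.16 and -0.01), did not pass with either gene. PLOD1 had r of 0.62 with FKBP14 and 0.25 with FKBP10 without pig 12.

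Of the 4 other FKBP genes with an ER signal, all tested, 1 passed with FKBP10 and 3 with FKBP14. The shares of all probe sets that passed with a positive slope were 0.424% and 2.26%. FKBP9, which like FKBP10 carries several isomerase domains, had r of 0.83 with FKBP10 (slope 0.60 ± 0.12 SE, limma adjusted p = 0.0294). With FKBP14, FKBP11 had r of 0.82, FKBP7 of 0.79 and FKBP9 of 0.74 (limma adjusted p = 0.0140, 0.0153 and 0.0405). FKBP2 passed with neither (0.40 with FKBP10 and 0.65 with FKBP14). The median r of these genes was 0.64 with FKBP10 and 0.77 with FKBP14.

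FKBP genes whose proteins lie outside the ER varied in sign. Of 7 tested, none passed with FKBP10 by limma, and their median r was 0.28. With FKBP14 the median was 0.04 and 1 passed, against 2.26% of all probe sets with a positive slope. That gene was FKBP1A (FKBP12, the cytosolic target of FK506), with r = 0.84 (limma adjusted p = 0.0153). FKBP3, a nuclear member, had r of -0.57 with FKBP10 and -0.64 with FKBP14 and did not pass.

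Of 15 tested general ER chaperones, 0 passed with FKBP10 by limma and 1 with FKBP14, against 2.26% of all probe sets with a positive slope. The 1 that passed was PDIA3, a disulfide isomerase of glycoproteins (r = 0.76, limma adjusted p = 0.0395). The median r of the 15 chaperones was 0.16 with FKBP10 and 0.39 with FKBP14. HSPA5 (BiP), the main ER Hsp70, had r of 0.02 and 0.21, CALR (calreticulin) -0.08 and -0.28, and DNAJB9, a cochaperone of BiP, -0.63 and -0.40. The sign for CALR was not stable, with 0.14 and -0.05 without pig 12 and 0.47 and 0.30 without the 3 arrays of lowest mean correlation. The r of HSPA5 with FKBP10 was -0.02 without pig 12 and -0.17 without the 3 arrays. Over all 58 tested genes of the collagen, FKBP and chaperone lists, 5 passed with FKBP10 and 13 with FKBP14, every one with a positive slope. Of all probe sets, 0.424% and 2.26% did so. With median-centred arrays 2 and 6 passed, where 22 and 251 of all probe sets were called in either direction. Without the signal filter 0 and 3 passed, and the calls over all probe sets fell there as well.

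**Figure D3:**
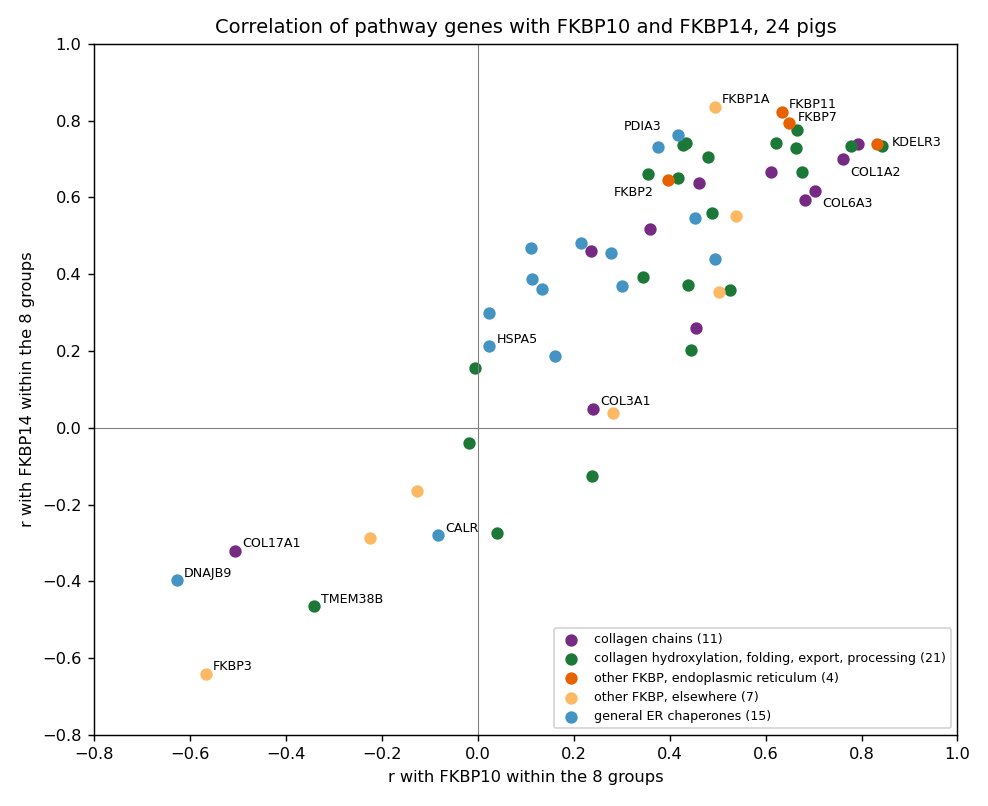
Pearson's r within the 8 groups with FKBP10 (horizontal) and with FKBP14 (vertical) for the 58 tested genes of the collagen, FKBP and ER chaperone lists, each at its brightest probe set, over 24 pigs. KDELR3, COL1A2 and the ER members of the FKBP family lie at the upper right, HSPA5 lies near 0 on the horizontal axis, and FKBP3, DNAJB9 and COL17A1 are negative on both axes.

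These calls rested on few pigs, above all on pig 12. Without it, 2 probe sets were called with FKBP10 and 0 with FKBP14, where 1330 had an unadjusted limma p below 0.05, and no gene of the pathway lists passed with either. Without pig 7, 1 probe set was called with FKBP10 and 50 with FKBP14, and 0 and 2 pathway genes passed. Without pig 24, 7 probe sets and 0 pathway genes passed with FKBP10, against 454 and 6 with FKBP14. The count with FKBP10 was 169 without pig 1 and 43, 28 and 39 without pigs 17, 19 and 22, and the count with FKBP14 was 258 without pig 8. Without the arrays of pigs 11, 12 and 16 there were 0 calls by limma for both genes, with 1449 and 1101 probe sets at an unadjusted p below 0.05.

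In all 24 fits that left out 1 pig, the slopes of the 5 pathway genes called with FKBP10 and the 13 called with FKBP14 stayed positive. COL1A2 kept its call with FKBP10 in 17 of those fits, its slope ranging from 0.81 to 1.39, and lost it without pig 7, 12, 16, 17, 19, 22 or 24. With FKBP14, P4HA2 kept its call in 11 fits, FKBP9 in 9 and PDIA3 in 14, while the other 10 genes kept theirs in 20 to 22. Without pig 12, r with FKBP10 was 0.77 for COL1A2, 0.77 for KDELR3, 0.76 for FKBP9 and 0.74 for LOX, while COL8A1 had 0.70. With FKBP14, r without pig 12 was 0.81 for SERPINH1, 0.75 for COL1A2, 0.73 for FKBP11, 0.72 for LOX, 0.72 for FKBP1A, 0.69 for P4HA2 and 0.67 for PDIA3. It was lower for FKBP7 (0.61 against 0.79 with all pigs), FKBP9 (0.59 against 0.74), SEC24D (0.58 against 0.73), KDELR3 (0.56 against 0.74), CRTAP (0.53 against 0.78) and COL8A1 (0.46 against 0.74). The COL8A1 signal in pig 12 was 512 against a median of 111 with olive oil. The median r of the ER members of the FKBP family without pig 12 was 0.47 with FKBP10 and 0.60 with FKBP14, and that of the general ER chaperones 0.09 and 0.33. Without the 3 arrays of lowest mean correlation these medians were 0.30 and 0.65, and -0.04 and 0.30. There, r with FKBP10 was 0.71 for FKBP9, 0.31 for FKBP7, 0.29 for FKBP11 and 0.006 for FKBP2. The median r of the 5 tested genes of collagen hydroxylation and glycosylation was then 0.06 with FKBP10 and 0.53 with FKBP14. For the 5 tested chains of fibril-forming collagens (COL1A2, COL3A1, COL5A1, COL5A2 and COL5A3) it was then 0.49 and 0.46. Their median r was 0.42 and 0.41 without pig 12, and 0.45 and 0.46 with all pigs.

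Between coconut oil and tallow, most collagen chains were lower with coconut oil. The pair was chosen from this comparison, and the gene lists with earlier results of these data known. Calls of listed genes between these fats, here and for the cell markers, are therefore a description and lend the pair no separate support. Of the 11 tested chains, 10 had a negative difference and 2 passed, both lower (against 1.12% of all probe sets), and the median difference was -0.65 against -0.04 over all probe sets. COL1A2 fell by 1.46 ± 0.35 (SE, limma adjusted p = 0.0479), with signals of 659 to 1162 (median 821) with coconut oil and 1134 to 9662 (median 1651) with tallow. COL6A2 fell by 0.76 ± 0.19 (limma adjusted p = 0.0484), with 746 to 1173 and 1124 to 2366. The highest coconut pig overlapped the lowest tallow pig for both genes. COL3A1 differed by 0.11 and COL8A1 by -0.08, neither past the test.

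Of the 21 genes of collagen hydroxylation, folding, export and processing, KDELR3 alone passed, against 1.12% of all probe sets. It fell by 1.21 ± 0.27 (limma adjusted p = 0.0413). Its signals were 516 to 1433 with tallow and 276 to 467 with coconut oil, without overlap. The share of all probe sets without such overlap is not given here. LOX (-1.37 ± 0.47, limma adjusted p = 0.116), CRTAP (-0.76 ± 0.23, 0.0834) and SERPINH1 (-0.40 ± 0.24, 0.348) did not pass. None of the 4 ER members of the FKBP family passed, with differences from -0.90 ± 0.24 (FKBP7, limma adjusted p = 0.0599) to -0.34 ± 0.15 (FKBP2) and a median of -0.65. The 7 other FKBP genes had a median of -0.06 and the 15 general ER chaperones of -0.14, with no call in either list. HSPA5 differed by -0.07 ± 0.20.

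The pathway genes called between coconut oil and tallow, 3 with all pigs, numbered from 0 to 10 as single pigs were left out. None was called without pig 1, 5, 6, 8, 10, 13, 15, 16, 18, 20, 21 or 23, 1 was called without pig 3, 4, 14, 17 or 22, and 7, 7, 10 and 9 were called without pigs 2, 7, 12 and 24. With all pigs, the calls of COL1A2, COL6A2 and KDELR3 came down to 0 without the signal filter, 0 after quantile normalization and 1 with median-centred arrays. Over all probe sets there were 6, 51 and 164 calls under these settings.

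**Figure D4:**
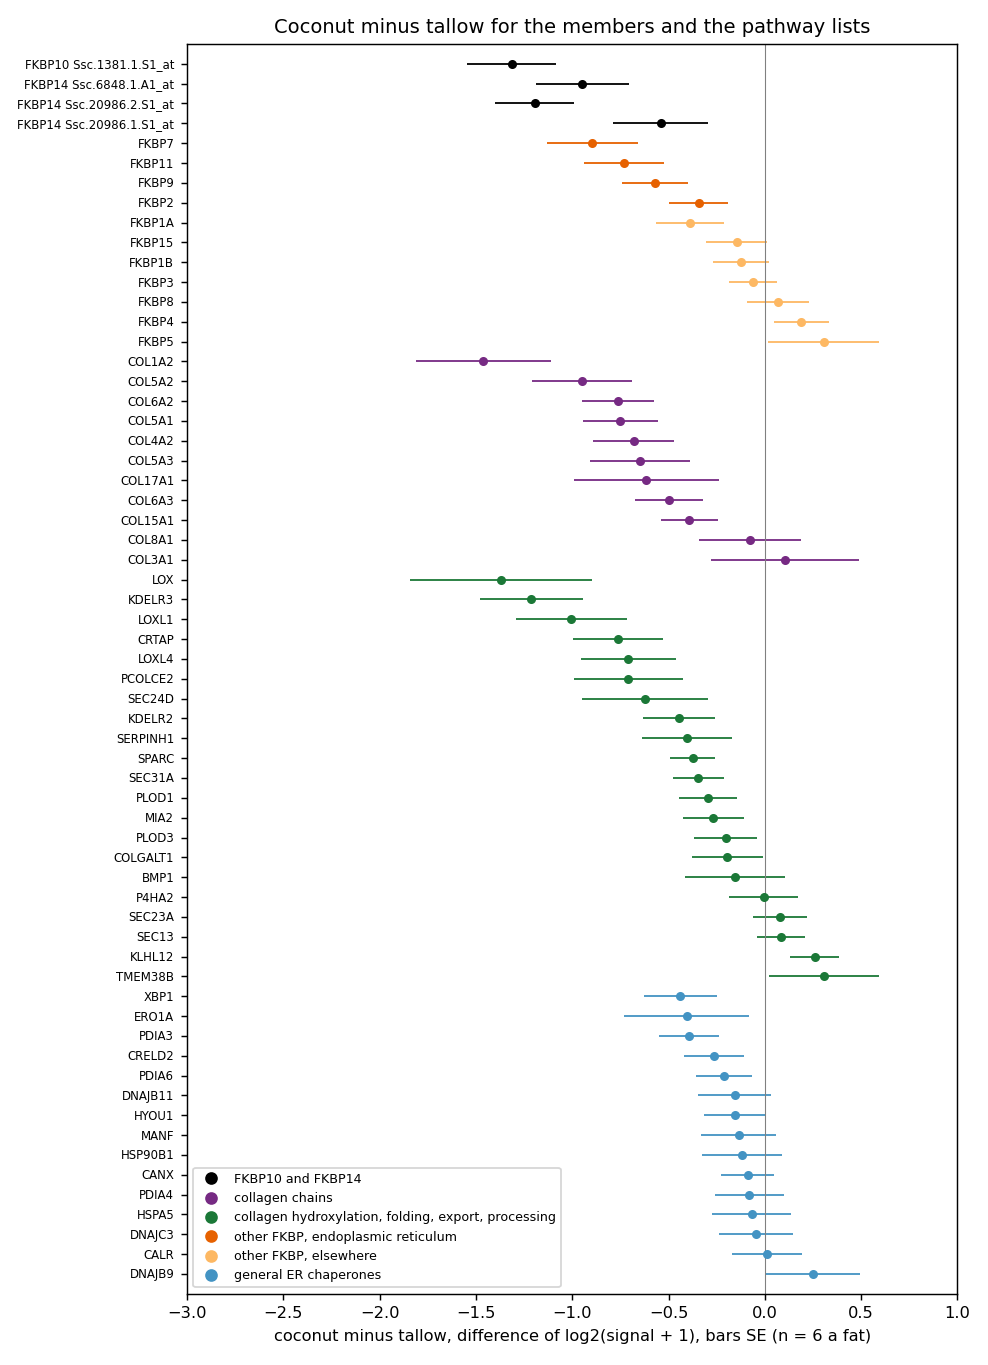
Coconut minus tallow as a difference of log2(signal + 1), with bars for the SE and 6 pigs a fat, for the 4 probe sets of FKBP10 and FKBP14 and the 58 tested pathway genes by list. The pair, the ER members of the FKBP family and most collagen chains lie left of 0, COL3A1 and COL8A1 lie near 0, and the general ER chaperones lie between -0.44 and 0.25.

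Between the sexes, 1 of the 58 pathway genes passed (against 4.77% of all probe sets), CANX (calnexin, an ER lectin chaperone), with a barrow minus gilt difference of -0.38 (limma adjusted p = 0.0283). No collagen chain and no FKBP gene passed.

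The genes most alike to each member were ranked by r within the groups, over 24 pigs and among 5344 other tested genes. For FKBP10 they were MPZL1 (0.85), FAM114A1 (0.85), KDELR3 (0.84), LHFP (0.84) and TMEM167B (0.84). FKBP9 ranked 7 and FKBP14 ranked 39. For FKBP14 they were LOC100510975 (0.91), PAPSS1 (0.90), FAM129A (0.88), PTGFRN (0.88) and YWHAQ (0.88), and FKBP10 ranked 123. PAPSS1 makes the sulfate donor used for proteoglycans.

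Over the log2 signals, which include the differences between groups, the closest to FKBP10 were FAM114A1 (0.91), MPZL1 (0.90), CITED1 (0.90), COPZ2 (0.89), a subunit of the COPI vesicle coat, and C1QTNF3 (0.89). The closest to FKBP14 were YWHAQ (0.93), PTGFRN (0.93), HK1 (0.91), BEX3 (0.90) and FAP (0.90), a surface protease of activated fibroblasts. FKBP14 ranked 18 for FKBP10 and FKBP10 ranked 41 for FKBP14 on that measure.

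Markers of fibroblasts were followed beside the pair, and none of the 13 tested passed the association with FKBP10 or FKBP14 by limma. A score was taken as the mean, over a list's tested genes, of each gene's deviation from its own mean. The fibroblast score (13 of 14 listed genes tested) was 0.29 ± 0.28 (SD, n = 6) with tallow, from -0.20 to 0.54, and -0.44 ± 0.17 with coconut oil, from -0.66 to -0.16. It was 0.02 ± 0.47 with olive oil and 0.13 ± 0.13 with soybean oil. The highest of all 24 pigs were pig 12 at 0.80 and pig 16 at 0.54. Within groups the score had r of 0.57 with FKBP10 and 0.71 with FKBP14, and the median r of the single genes was 0.37 and 0.45. That median was 0.33 and 0.32 without pig 12, and 0.18 and 0.34 without the 3 arrays of lowest mean correlation. All 13 genes had lower means with coconut oil than with tallow (median difference -0.69), whereas 44.6% of all probe sets had higher ones. By limma 4 passed that comparison (DCN, THY1, POSTN and FBN1), against 1.12% of all probe sets. The part of fibroblast content in the values of FKBP10 and FKBP14 was not tested.

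The adipocyte score (9 genes) was 0.52 ± 0.91 (SD, n = 6) with tallow and -0.82 ± 0.47 with coconut oil. Its r within groups was 0.44 with FKBP10 and 0.58 with FKBP14. The median r of the single adipocyte genes was 0.37 and 0.56. It was 0.22 and 0.39 without pig 12, and 0.40 and 0.54 without the 3 arrays of lowest mean correlation. All 9 had lower means with coconut oil than with tallow (median difference -1.40). By limma 1 passed that comparison, against 1.12% of all probe sets. Scores of endothelium (10 genes) had r of 0.08 and 0.22, of leukocytes (7 genes) -0.01 and 0.46, of muscle fibres (8 genes) -0.05 and -0.32, and of erythrocytes (2 genes) 0.07 and 0.11. The median r of the single leukocyte genes was 0.01 with FKBP10 and 0.45 with FKBP14. It was -0.18 and 0.25 without pig 12, and -0.42 and 0.13 without the 3 arrays of lowest mean correlation. The sign for muscle fibre genes depended on which pigs were left out. Without pig 12 their median r went from -0.11 to 0.24 with FKBP10 and from -0.20 to 0.15 with FKBP14. Without the 3 arrays of lowest mean correlation, pig 12 among them, the median r was 0.08 with FKBP10. With FKBP14 it was then -0.22, and 0 of the 8 genes had a positive r. No gene of these marker lists passed the association with either member by limma. The 3′ minus 5′ log2 difference of control probe sets, a measure of RNA integrity, was available for 4 pairs. One actin pair ran from 0.88 to 1.84 and had r within groups of 0.38 with FKBP10 and 0.54 with FKBP14, and the other ran from -0.46 to -0.08 with r of 0.29 and -0.08. One GAPDH pair ran from 0.03 to 0.32 with r of 0.46 and 0.34, and the other from -0.40 to 0.71 with r of 0.05 and 0.31. Pig 16 was highest in all but the last of these. The part of adipocyte content and of RNA integrity in these values was not tested.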

How the data were processed

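Single-colour Affymetrix porcine arrays of longissimus dorsi muscle, 1 per pig, were analysed for FKBP10 and FKBP14. Per the labels' protocols, RNA was amplified with a 3′ one-cycle kit. The deposited values are linear probe set intensities, and their equal trimmed means show a scaling of each array. How probe signals were summarised is not stated in these sources. Gene names came from the platform annotation, updated by gene ID to RefSeq symbols: 10069 probe sets had 1 symbol, 198 several and 13732 none.

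Intensities were transformed to log2(signal + 1), and probe sets under the 40th percentile of mean log2 signal were left out. limma 3.58.1 (R 4.3.3; lmFit, eBayes) fitted 8 group means, with Benjamini-Hochberg adjustment over 14399 probe sets and a threshold of 0.05. Associations added the member's log2 signal as a covariate. Correlations used 100000 permutations within groups. The code was tested on simulated data. The members and gene lists were chosen with earlier results of these data known. Named genes were the pair, the other ER members of the FKBP family, listed major collagen chains, up to 4 genes past the threshold in each other list or else listed examples, and the 5 genes most alike by each measure. COL8A1, COL17A1, FKBP3, DNAJB9, CANX, CKM and MYH7 were named after their values were seen. Alternatives changed the scaling, pseudocount, filter, model or probe set, or left out pigs. The number of arrays limits the precision.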

Additional observations from a re-analysis of the deposited data

Results flagged for a closer look

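Dixon's outlier test was applied to the 6 pigs of each fat for each of the 4 probe sets, and 3 values stood apart from their neighbours. With olive oil, pig 12 was highest for FKBP14, with a gap to the next pig of 0.835 of the whole range at the brightest probe set (signal 645, log2 9.33 against 8.00) and of 0.719 at the middle one (signal 423, log2 8.73 against 7.79). With coconut oil, pig 1 was highest for FKBP10 with a gap of 0.648 (signal 301, log2 8.24 against 7.62). For FKBP10 and at the dimmest FKBP14 probe set, pig 12 was also the highest olive pig, with gaps of 0.466 and 0.509 that did not pass the test. Chance alone passes it in about 1 of 20 groups. Pig 12 also had the highest fibroblast, collagen, endothelial and leukocyte scores of all pigs (0.80, 0.72, 0.37 and 0.96). Its adipocyte score (1.24) was below that of pig 21 alone (1.75), and its muscle fibre score (-0.48) was the lowest.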

How the results depend on the processing

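Coconut minus tallow kept its sign for FKBP10 and FKBP14 under every alternative run, while counts of calls moved widely. FKBP10 coconut minus tallow was -0.72 in gilts alone and -1.91 in barrows alone. For olive minus tallow these were -0.18 and -1.91 for FKBP10 and 0.13 and -1.05 for FKBP14, and for soybean minus tallow -0.11 and -1.28 for FKBP10. Soybean minus coconut for FKBP14 was 0.063 at its dimmest probe set. Calls between coconut oil and tallow (161) were 6 without the signal filter, 51 after quantile normalization, 260 without the 3 arrays of lowest mean correlation, 0 in the additive model (2793 at an unadjusted limma p below 0.05), 313 with these 2 fats fitted alone and 0 to 664 without single pigs. Olive minus coconut gave 2 without the filter, and soybean minus coconut gave 3 without the filter, 3 without the 3 arrays and 33 fitted alone. Leaving out single pigs gave 0 to 7 calls for olive minus tallow, 0 to 1 for soybean minus tallow, 0 to 1 for olive minus coconut, 0 to 4 for soybean minus coconut, 0 to 1 for soybean minus olive and 0 to 2 for the interaction. Barrow minus gilt (687) gave 302 without the filter, 416 without the 3 arrays and 386 to 1057 without single pigs. For FKBP10, barrow minus gilt turned from -0.04 to 0.015 after quantile normalization and 0.0055 with median-centred arrays, and ranged from -0.12 to 0.053 without single pigs. For FKBP14 it ranged from -0.016 to 0.18 without single pigs. The association with FKBP10 (66 calls) gave 2 without the filter, 38 after quantile normalization, 22 with median-centred arrays, 0 without the 3 arrays, 2465 without adjustment for the groups and 1 to 169 without single pigs. The association with FKBP14 (409) gave 85 without the filter, 251 with median-centred arrays, 0 without the 3 arrays, 3463 without adjustment for the groups, 96 from the middle probe set and 0 to 510 without single pigs. The correlation of the pair, 0.72, was 0.50 without the 3 arrays (permutation p = 0.119), 0.58 without the 2 farthest pigs (permutation p = 0.0838) and 0.58 to 0.79 without single pigs. The cause of these changes was not tested. No paired analysis was possible because each pig has a number of its own.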
